A study of Drosophila melanogaster with 2 samples.

Results

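The genes described here encode 10 proteins of Drosophila melanogaster that either mark chromatin boundaries or set up transcription at promoters: CTCF, su(Hw), BEAF-32, Cp190, mod(mdg4), Chro, Dref, M1BP, pzg and Trf2. They are 10 of the 13945 protein-coding genes annotated on the 6 chromosome arms, and they were taken as each gene with 5 kb on either side. They were chosen by name for their function and for the peaks they were already known to carry in these lists, so their own counts and ranks are a description and were not tested. The assay was chromatin immunoprecipitation followed by sequencing (ChIP-seq) of maf-S, a leucine zipper transcription factor of the small Maf family, which pairs with Cap'n'collar on DNA. There is 1 group of 2 biological replicates, numbered 2 and 3 in the labels, and both were embryos of mixed sex collected at 0 to 24 h from the strain maf-S-GFP, a transgenic line with maf-S-eGFP, a fusion that carries the tag at its C terminus. The protein was pulled down through its GFP tag, and the chromatin had been sonicated to 200 to 800 bp. Both samples share the transgene, and the control experiment that the labels name was not analysed here, so the peaks are those of the tagged protein with no second genotype beside it. Whole embryos from the entire collection window were used, so a peak does not say in which cells or at which age the protein was bound.

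Insulator proteins bind DNA at the borders of chromatin domains and can keep an enhancer from acting on a promoter across the border. In flies CTCF, su(Hw) and BEAF-32 bind their own DNA motifs, whereas Cp190, mod(mdg4) and Chro join them through protein contacts and are shared between boundary types. Dref binds the DNA replication-related element (DRE), M1BP binds the core promoter element called motif 1, and pzg works with Dref, Trf2 and the NURF chromatin remodeller. Trf2 replaces the TATA-binding protein at many promoters without a TATA box. BEAF-32 and Dref recognise overlapping letters, and their targets are largely the promoters of housekeeping genes, many of which lie head to head with a neighbour.

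The authors deposited a ranked list of peaks for each replicate, a list that their read-me derives from the alignments of both replicates (the pooled list), and the peaks of the pooled list that passed their reproducibility threshold. Each of the first 3 lists holds 30000 peaks, and the thresholded list holds 3205, which are exactly the 3205 strongest of the pooled list. Each peak carries a summit, its single strongest base, and a signal value from the authors' peak caller that ranks peaks within a list. The thresholded signals run from 72.3 to 1703 with a median of 109. The scale of the signal, the caller and the read depth are not given in the sources used here, so signals are set side by side only within 1 list and the replicates are compared by rank. A gene is called bound below where a thresholded summit lies within 1 kb of any of its annotated start sites.

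The following sequences are shown because they lie at summits or start sites of the members. They hold, or lack, the letters that these same proteins read. All are from the RefSeq genome of Release 6 (dm6), written 5' to 3' along the transcribed strand of the gene named. In the promoters of Cp190, CTCF and mod(mdg4), capitals mark the 8-letter DRE TATCGATA; the further capitals mark a separate 5-letter BEAF-32 core, CGATA in mod(mdg4) and its other strand TATCG in Cp190.
Cp190 promoter, chr3R:15275238-15275337, minus strand: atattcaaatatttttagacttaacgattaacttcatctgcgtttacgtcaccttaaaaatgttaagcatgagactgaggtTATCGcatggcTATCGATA
Cp190 second start, chr3R:15274796-15274819, minus strand: caggcgtaTATCGATAtttgcgag
CTCF promoter, chr3L:7356714-7356813, minus strand: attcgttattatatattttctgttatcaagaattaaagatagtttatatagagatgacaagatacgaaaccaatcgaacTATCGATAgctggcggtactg
mod(mdg4) promoter, chr3R:21377402-21377501, minus strand: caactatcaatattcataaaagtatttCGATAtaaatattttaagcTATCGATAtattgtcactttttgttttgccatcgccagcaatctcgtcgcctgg
The Cp190 promoter sequence runs from the summit side into the first 4 transcribed bases, and the DRE straddles the start. The CTCF and mod(mdg4) sequences are the 100 bp before the first transcribed base.

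The next 4 sequences have no full DRE. Capitals mark the BEAF-32 core at Dref and Chro, and the letters TGACNNNGC, a relaxed form of the site read by Cap'n'collar and small Maf proteins, at pzg. The internal promoter of mod(mdg4) held none of the marked motifs. It is shown because the strongest pooled peak of that locus covers it, with the summit on its last bases.
Dref promoter, chr2L:9967230-9967312, minus strand: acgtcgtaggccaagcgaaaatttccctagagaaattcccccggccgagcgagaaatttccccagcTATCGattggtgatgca
Chro summit, chr3L:22878874-22878898, minus strand: gcTATCGacaggcaatacactccca
pzg upstream site, chr3L:21285743-21285767, plus strand: gttaatttTGACATTGCatgatagg
mod(mdg4) internal promoter, chr3R:21365489-21365608, minus strand: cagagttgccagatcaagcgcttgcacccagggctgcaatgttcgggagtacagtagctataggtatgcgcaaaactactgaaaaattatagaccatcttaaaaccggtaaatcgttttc
The Dref sequence is the whole stretch between the starts of Dref and its neighbour RpL13. The Chro sequence is 25 bases centred on the summit.

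Of the 10 genes, 5 were bound: Chro, Cp190, Dref, pzg and BEAF-32. Over all protein-coding genes 19.4% were bound, 2707 of 13945. Counting any thresholded summit in the gene or within 5 kb, 6 members held one, with mod(mdg4) added, against 41.8% of protein-coding genes. All 10 members had a pooled-list summit of some rank within 1 kb of a start, as did 63.3% of protein-coding genes. In all, 9 thresholded summits fell in the windows of the 10 genes, and 4 windows, those of CTCF, su(Hw), M1BP and Trf2, held none.

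**Figure D1:**
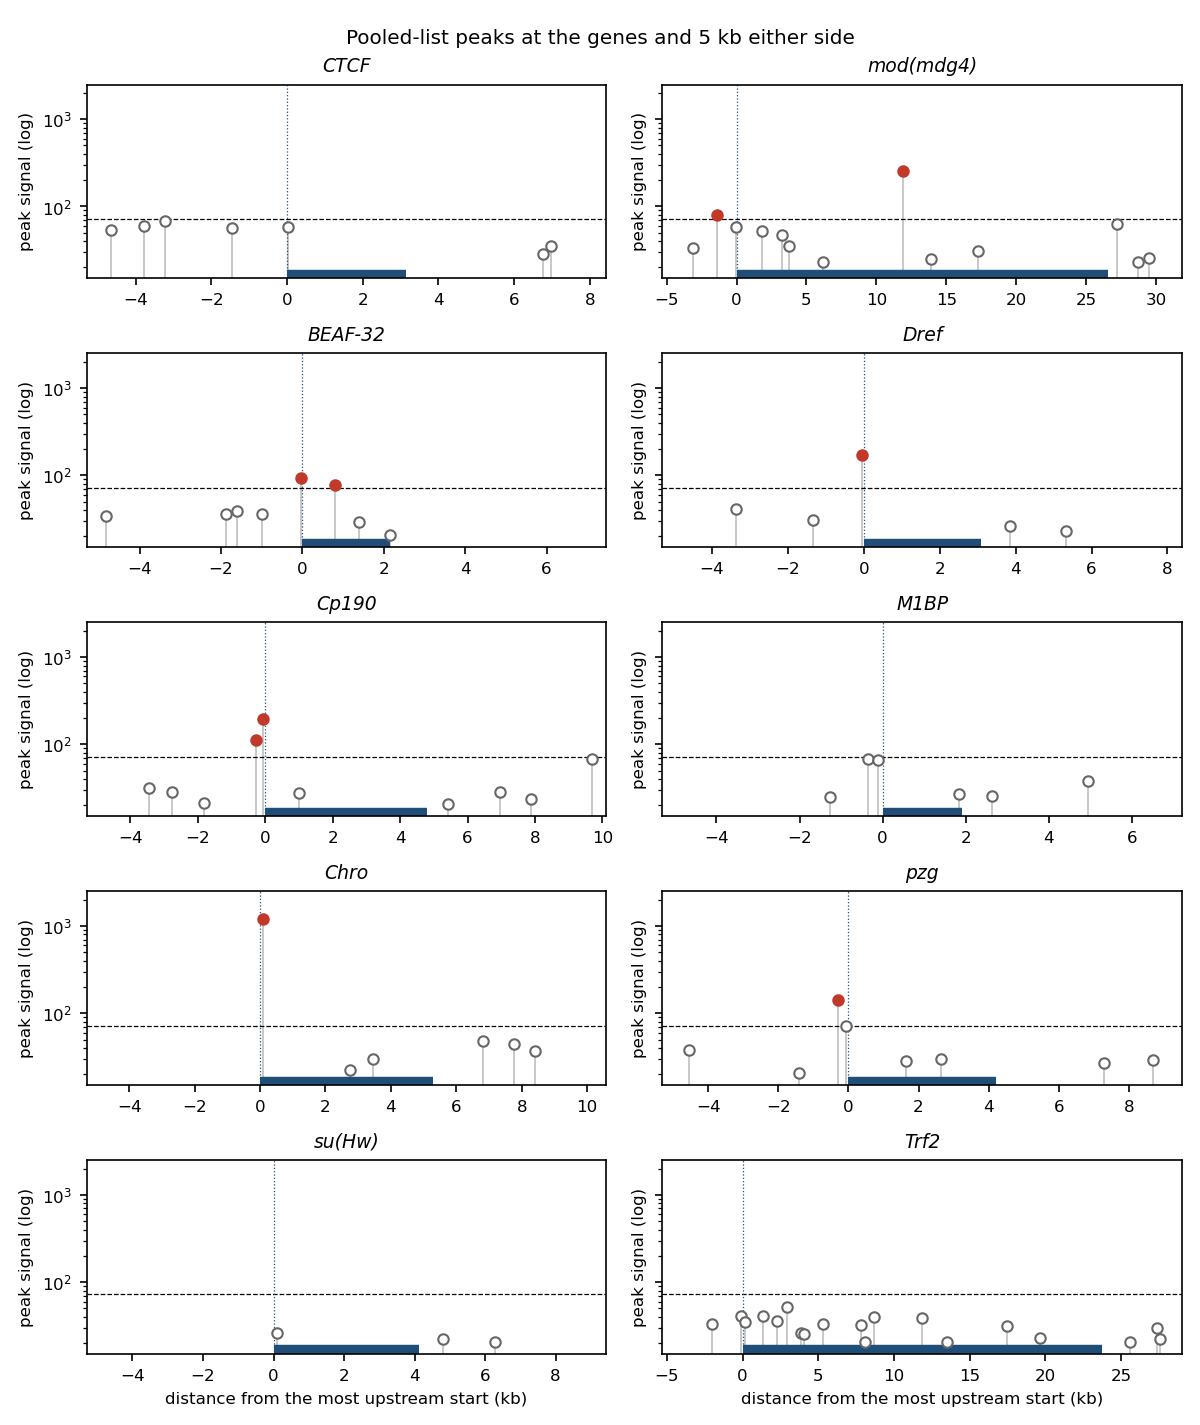
Pooled-list peaks at each gene and 5 kb either side, with distance from the most upstream start in kb (transcription to the right) on the x axis and the authors' signal on a log y axis. Filled circles are thresholded peaks, open circles are the rest, the bar is the gene and the dashed line is the lowest thresholded signal, 72.3. Chro stands highest at 1211, and the 2 filled circles of mod(mdg4) lie away from its start.

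Among the DNA-binding insulator proteins, BEAF-32 was bound and CTCF and su(Hw) were not. BEAF-32 (FBgn0015602, chr2R:14770469-14772630, plus strand) has 3 annotated starts, each used by 1 transcript, and 2 thresholded peaks. The peak chr2R:14770246-14770635, with signal 94.1 at rank 2065, has its summit 28 bp upstream of the first start. It ranked 1198 in replicate 2, with its summit on the start itself, and 3310 in replicate 3. The peak chr2R:14771067-14771456, with signal 78.2 at rank 2818, lies in the 5' UTR of the longer transcripts, 39 bp upstream of the start of the BEAF-32-RB transcript and 33 bp from the start of an antisense RNA, asRNA:CR42254. It ranked 2947 in replicate 2, with a summit 126 bp away from the pooled one, and 2715 in replicate 3. The first peak was thus the stronger in replicate 2 and the second was the stronger in replicate 3.

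CTCF (FBgn0035769, chr3L:7353578-7356713, minus strand), the fly counterpart of the vertebrate zinc finger insulator protein, has 1 start. The nearest other start, that of the antisense RNA asRNA:CR45822, is 712 bp away. Its own best peak within 1 kb had signal 58.4 at rank 4493, with the summit 22 bp inside the 5' UTR. In replicate 2 it ranked 2628, which is among that list's 3205 strongest, with the summit 10 bp upstream of the start, and in replicate 3 it ranked 6231. The 7 pooled peaks in its window had signals up to 67.9, and the strongest, at rank 3524, lay 162 bp inside the neighbour pst.

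su(Hw) (FBgn0003567, chr3R:14304455-14308589, minus strand), a zinc finger protein known from the gypsy retrotransposon insulator, had the weakest promoter peak of the 10 genes. Its best summit lay 110 bp inside the 5' UTR with signal 26.2 at rank 18361. Replicate 2 had a summit 88 bp inside the gene at rank 17258, and the best of replicate 3 was 646 bp inside at rank 16485, so the replicates did not place it together. Its window held 3 pooled peaks, the fewest of any member.

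The 3 cofactors differed widely in rank. Chro (FBgn0044324, chr3L:22873702-22878984, minus strand), a chromodomain protein found between the bands of polytene chromosomes, held the strongest peak of all the members, chr3L:22878711-22879092. Its signal was 1211 at rank 6 of the pooled list, and it ranked 5 in replicate 2 with signal 519 and 7 in replicate 3 with signal 694. The 3 summits lay within 5 bp of each other. The summit falls in the 5' UTR between 2 starts, 98 bp downstream of the start of Chro-RE and 118 bp upstream of the start shared by 3 transcripts. Among protein-coding genes ordered by their strongest peak within 1 kb, Chro took place 5, and 0.0287% of genes stood higher. On the other side, 105 bp before Chro-RE, starts Ssl1, a subunit of the general factor TFIIH, 203 bp from the summit. The peak covers the Ssl1 start as well, and place 6 of the gene order also had signal 1211. Neither place nor distance therefore assigns the peak to Chro alone.

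Cp190 (FBgn0000283, chr3R:15270432-15275241, minus strand), a BTB domain protein shared by most fly insulators, had a pair of thresholded peaks upstream. The stronger, chr3R:15275125-15275514, had signal 194 at rank 555 and a summit 79 bp upstream of the start. The weaker, chr3R:15275325-15275714, had signal 112 at rank 1554 and lay 279 bp upstream, 2 bp from the start of the divergent neighbour CG4338. These peaks overlap each other, and whether they are separate sites was not tested. Replicate 3 listed both, at ranks 553 and 2628, with summits 3 bp from the pooled ones. Replicate 2 had 1 summit between them, 234 bp upstream of Cp190 and 47 bp from the start of CG4338, at rank 456. Which of the neighbouring summits was the stronger therefore rests on replicate 3.

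mod(mdg4) (FBgn0002781, chr3R:21350846-21377401, minus strand) makes many BTB proteins from a common 5' part joined to alternative 3' exons, some of them by trans-splicing from separate pre-mod(mdg4) transcripts. Its single start, shared by 22 transcripts, had a peak below the threshold, with signal 58.2 at rank 4517 and a summit 35 bp upstream. It ranked 3958 in replicate 2 and 5487 in replicate 3, with both summits within 6 bp of the pooled one. The strongest peak of the locus, chr3R:21365298-21365687, lay 11908 bp downstream of the start, in an intron of mod(mdg4). It had signal 258 at rank 303, and ranked 274 in replicate 2 and 358 in replicate 3. Its summit lay 5 bp upstream of the start of pre-mod(mdg4)-E, one of those 3'-exon transcripts, and at the far end of the internal promoter shown above, 121 bp away, 7 further genes of this kind, among them pre-mod(mdg4)-AD, share a start on the opposite strand. The replicate 2 summit was 1 bp and the replicate 3 summit 84 bp from the pooled one. That replicate 3 peak, chr3R:21365283-21365425, does not reach the internal promoter sequence shown above. Replicate 3 also listed a separate summit at rank 4367, 1 bp from the start of pre-mod(mdg4)-AD. The other thresholded peak in the window, chr3R:21378632-21379021, with signal 80.4 at rank 2691, lay 1426 bp upstream of mod(mdg4) and 150 bp upstream of tin, the homeobox gene of heart formation. It ranked 6098 in replicate 2 and 1811 in replicate 3.

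Of the 4 promoter factors, Dref and pzg were bound and M1BP and Trf2 were not. Dref (FBgn0015664, chr2L:9964147-9967229, minus strand) had 1 thresholded peak, chr2L:9967075-9967464, with signal 171 at rank 701. It ranked 747 in replicate 2 with signal 72.2 and 693 in replicate 3 with signal 100. The summit was 41 bp upstream of Dref and 43 bp upstream of RpL13, a ribosomal protein gene of the large subunit that starts 84 bp away on the opposite strand. The summit lies between both starts and the peak covers both of them, so distance does not assign it to either gene.

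pzg (FBgn0259785, chr3L:21286099-21290310, plus strand), a zinc finger protein, had the thresholded peak chr3L:21285620-21286009 with signal 143 at rank 989. It ranked 1119 in replicate 2 and 1093 in replicate 3. The summit was 284 bp upstream of pzg but 147 bp inside the 5' UTR of CG12974, which starts 137 bp from pzg on the opposite strand. A second summit, 78 bp upstream of pzg and nearer to its start, had signal 71.5 at rank 3256, just below the threshold. Its peak overlaps the thresholded one. That second summit ranked 2735 in replicate 2 and 5036 in replicate 3.

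M1BP (FBgn0037621, chr3R:8729790-8731698, minus strand), a zinc finger protein of promoters with paused polymerase, had a close pair of summits just below the threshold. One, with signal 68.0 at rank 3515, lay 349 bp upstream and 44 bp from the start of CG8202, the opposite-strand gene that starts 393 bp away. The other, with signal 66.9 at rank 3597, lay 101 bp upstream of M1BP. Their peaks overlap each other. Replicate 2 held only a summit on the CG8202 side, 308 bp upstream at rank 3243, and replicate 3 held both, at ranks 4248 and 4121.

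Trf2 (FBgn0261793, chrX:8409272-8433011, plus strand) has 2 starts, the first with 4 transcripts and the second with 2. The first had its best peak 108 bp upstream, with signal 40.5 at rank 7987, and the second had one 235 bp upstream, with signal 38.5 at rank 8702. The replicates disagreed on the side of the first start: replicate 2 had a summit 114 bp upstream at rank 4784, and replicate 3 had one 122 bp downstream at rank 4247. The window of Trf2 held 19 pooled peaks, the most of any member, and all were weak, the best being 51.7 at rank 5336, 521 bp from the start of lawc, the nearest neighbouring gene. Its window is also long, 33740 bp, second to the 36556 bp of mod(mdg4), which held 13 pooled peaks.

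**Figure D2:**
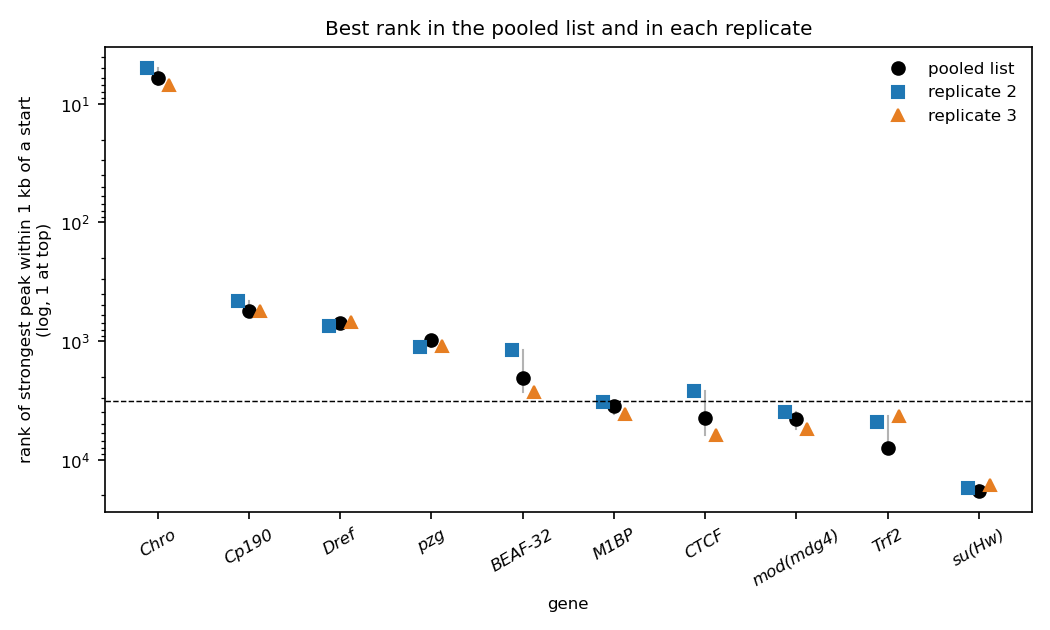
Rank of the strongest peak within 1 kb of a start (log y axis, rank 1 at the top) for each gene in the pooled list (circle), replicate 2 (square) and replicate 3 (triangle). The dashed line is rank 3205. On this log axis the spans of CTCF, from 2628 to 6231, BEAF-32, from 1198 to 2715, and Trf2, from 4247 to 7987, are the widest. Those of the other genes are narrower.

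In order of their best promoter peak the genes were Chro at rank 6, Cp190 at 555, Dref at 701, pzg at 989, BEAF-32 at 2065, M1BP at 3515, CTCF at 4493, mod(mdg4) at 4517, Trf2 at 7987 and su(Hw) at 18361. In every list Chro, at 5 to 7, was far ahead of Cp190, at 456 to 555. Cp190 and Dref were in the same order in both replicates, and so were Dref and pzg. The order of M1BP, CTCF and mod(mdg4) differed between the replicates, since CTCF led at 2628 in replicate 2, while M1BP led at 4121 in replicate 3. Trf2 changed place too. At 4784 it was behind those genes in replicate 2, but at 4247 it was ahead of CTCF and mod(mdg4) in replicate 3. Taking the 3205 strongest peaks of each replicate instead, 6 of 10 members were bound in replicate 2, with CTCF added, against 19.7% of protein-coding genes. In replicate 3 the same 5 members as in the thresholded list were bound, against 18.9%. The 5 were bound in both replicates and CTCF only in replicate 2, beside 2170 protein-coding genes bound in both, 575 in replicate 2 alone and 472 in replicate 3 alone. No p-value was computed, since the study has 1 group and the genes were chosen on these peaks.

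**Figure D3:**
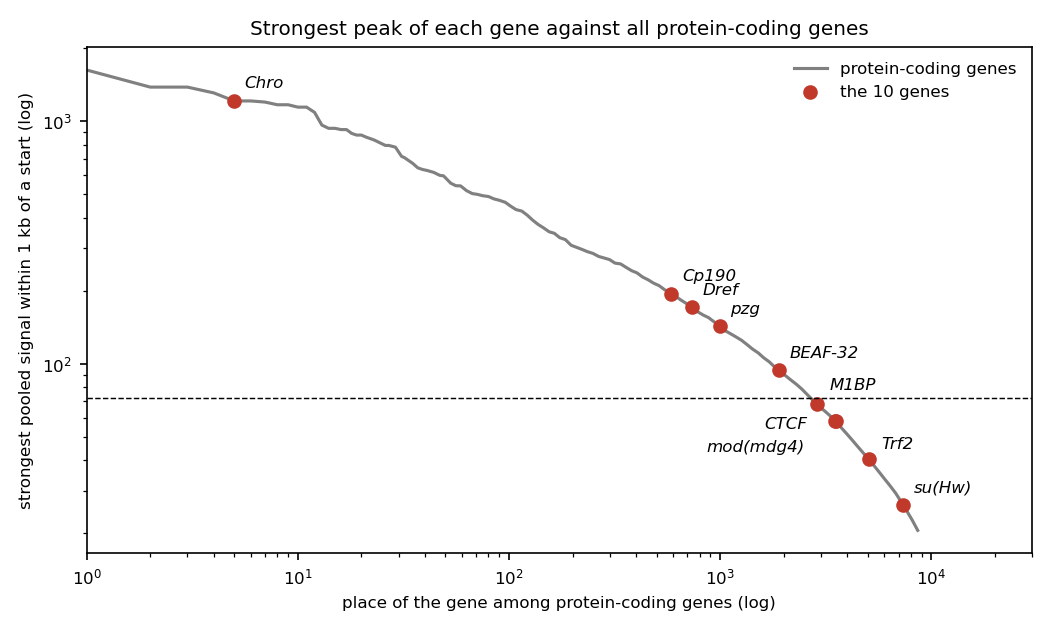
Strongest pooled signal within 1 kb of a start (log y axis) against the gene's place among protein-coding genes (log x axis). The line is the curve of protein-coding genes, the circles are the 10 genes and the dashed line is signal 72.3. Chro is at place 5, Cp190 at 588, Dref at 734 and pzg at 994, whereas su(Hw) is at 7384.

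At the threshold itself, the weakest thresholded peaks of these windows were 94.1 and 78.2 at BEAF-32 and 80.4 near tin. The strongest outside it were 71.5 at pzg, 68.0 and 66.9 at M1BP, 67.9 near pst in the CTCF window, and 67.8 at rank 3536 near ATPsynO, an ATP synthase gene in the Cp190 window. M1BP is therefore called unbound by a margin of a few signal units.

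Of the 10 genes, 6 have a protein-coding gene starting on the opposite strand within 500 bp upstream: Cp190, Chro, su(Hw), Dref, M1BP and pzg. The shortest gap was the 84 bp between Dref and RpL13, and the longest the 500 bp between su(Hw) and Polr2I, a subunit of RNA polymerase II. Over all protein-coding genes 26.4% have such a partner, 3686 of 13945. Of the 6 head-to-head members 4 were bound, and of the other 4 only BEAF-32 was. Over all protein-coding genes, 35.5% of head-to-head genes and 13.6% of the others were bound. The thresholded summits of Dref and Cp190 lie between the paired starts, that of pzg lies inside the partner gene, and that of Chro lies inside Chro.

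**Figure D4:**
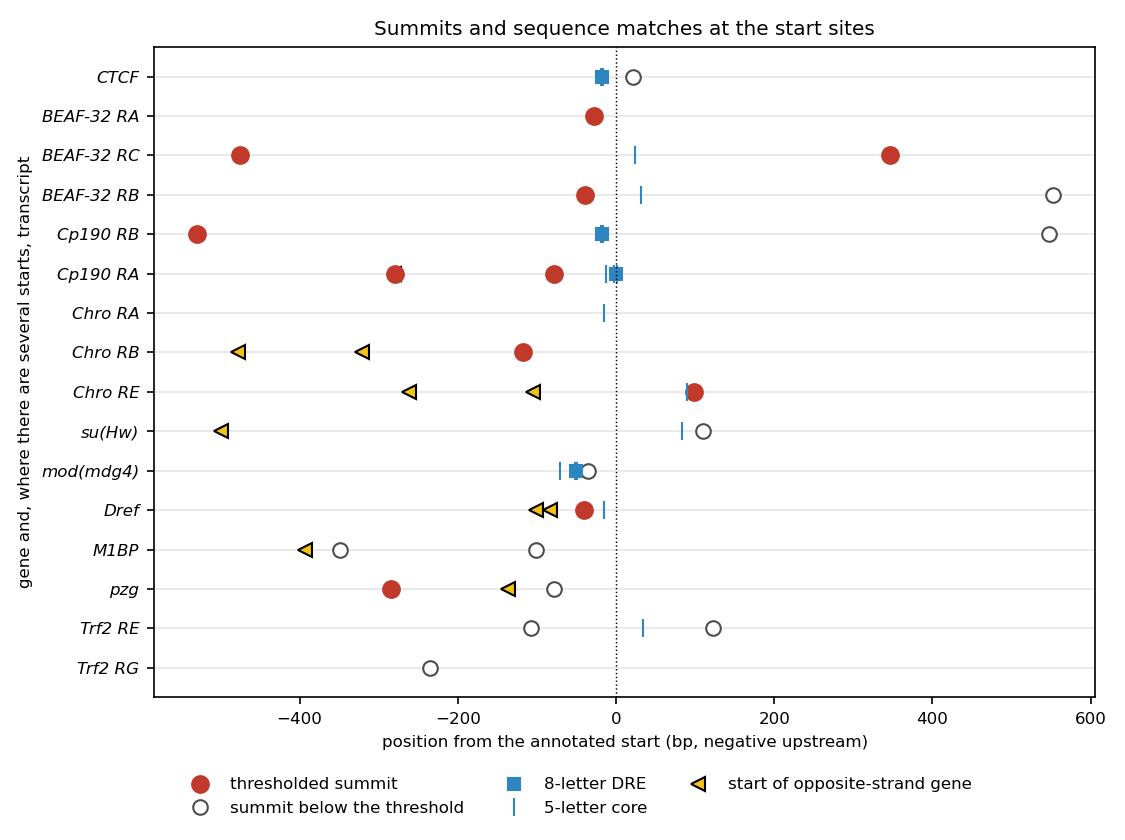
Positions within 600 bp of each annotated start of the 10 genes, in bp with negative values upstream. Filled and open circles are summits above and below the threshold, squares are the 8-letter DRE and ticks the 5-letter BEAF-32 core. Triangles are the starts of protein-coding genes on the opposite strand (the one of Cp190 is behind its circle). The antisense RNA starts of asRNA:CR42254 near the BEAF-32 starts are not drawn. The squares of CTCF and mod(mdg4) stand beside open circles, and no square stands at Dref.

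Motifs were searched as exact letters on both strands in 201 bp centred on each thresholded summit and on each start. The DRE occurred at 1 of the 9 summits of these windows, the stronger one of Cp190, 78.5 bp from the summit. It occurred at 5.74% of all 3205 thresholded summits and at 6.45% of all 19252 protein-coding starts. Of the 10 genes, 3 had it at a start, CTCF, Cp190 and mod(mdg4), beside 8.49% of protein-coding genes. In CTCF its centre lay 17.5 bp before the start, and 39.5 bp from the pooled summit. In mod(mdg4) it lay 50.5 bp before the start and 15.5 bp from the summit, and both of these summits are below the threshold. In Cp190 1 DRE crosses the first start and another lies 17.5 bp before the second. The DRE at the second start is 512.5 bp from the nearest pooled summit. The gene of the DRE-binding protein, Dref, had none in the 201 bp at its start, and M1BP had no motif 1, GGTCACAC, in the 201 bp at its start. That says only that those letters are absent there.

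The BEAF-32 core CGATA, which is contained in the DRE, was found at 4 of the 9 summits, against 34.2% of all thresholded summits and 37.1% of single starts. It was at any start of 8 of the 10 genes, all but M1BP and pzg, against 44.7% of protein-coding genes counted in the same way. The centre of the core lay 8 bp from the summit at Chro, 26 bp at Dref, 71 bp at the second peak of BEAF-32 and 66 to 80 bp at the stronger peak of Cp190. Motif 1 was at 0 of the 9 summits and at 3.59% of all. Among the 10 members only su(Hw) had it at a start, beside 7.56% of protein-coding genes. The relaxed Maf site TGACNNNGC was at 1 of the 9, pzg, 60 bp from the summit. It was at 5.74% of all summits and at 6.49% of protein-coding starts. Among the members only pzg had it at a start, another match 62 bp downstream, beside 8.53% of protein-coding genes. The AP-1 type site TGACTCA was at none of the 9 and at 2.15% of all. The TATA box TATAAA was at 3 of the 9 and at 30.1% of all. The GAGA letters GAGAG, the E-box CAGCTG, the CTCF core AGGNGGC and the Su(Hw) core TGCATAC were at none of the 9, and at 23.1%, 10.8%, 6.05% and 3.49% of all. At starts, the GAGA letters were found in Dref and Trf2 and the E-box in CTCF, beside 28.7% and 17.4% of protein-coding genes. A start of Chro had the CTCF core and a start of Trf2 the Su(Hw) core, beside 8.26% and 2.2%. GC content of the 9 windows ran from 30.8% to 42.3% with a median of 34.8%, beside a median of 36.8% for all thresholded summits.

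The wider families of these proteins were read in the same way, from lists chosen by function. Of 26 genes for other insulator and architectural proteins, 10 were bound (38.5%), with a median best signal of 114 among the bound. The strongest were Trl, which encodes the GAGA factor, with signal 225 at rank 402, and fs(1)h, a bromodomain protein, with 178 at rank 653. Top2, the topoisomerase, had 132 at rank 1145. JIL-1, a histone H3 kinase, had 132 at rank 1150, with the summit 561 bp from its nearest start. Elba1, Elba3, HIPP1 and vtd had no pooled summit within 1 kb.

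Of 39 genes for other promoter factors, 16 were bound (41.0%), with a median of 143 among the bound. The strongest were Adf1, a promoter-binding activator, with signal 598 at rank 45, and NC2alpha, a subunit of a regulator of the TATA-binding protein, with 287 at rank 224. The Adf1 summit lay 780 bp from the nearest start of that gene. Next came lola, a BTB zinc finger protein, with 215 at rank 446, and Dp, the partner of E2F, with 213 at rank 455. The gene of the TATA-binding protein itself, Tbp, had its best peak at rank 14879, and Trf at 17466, named here beside their relative Trf2 after their values were seen. The median over the 5 bound members was 171 and over all bound protein-coding genes 119. Both lists were picked by hand, and their shares were not tested against 19.4%.

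**Figure D5:**
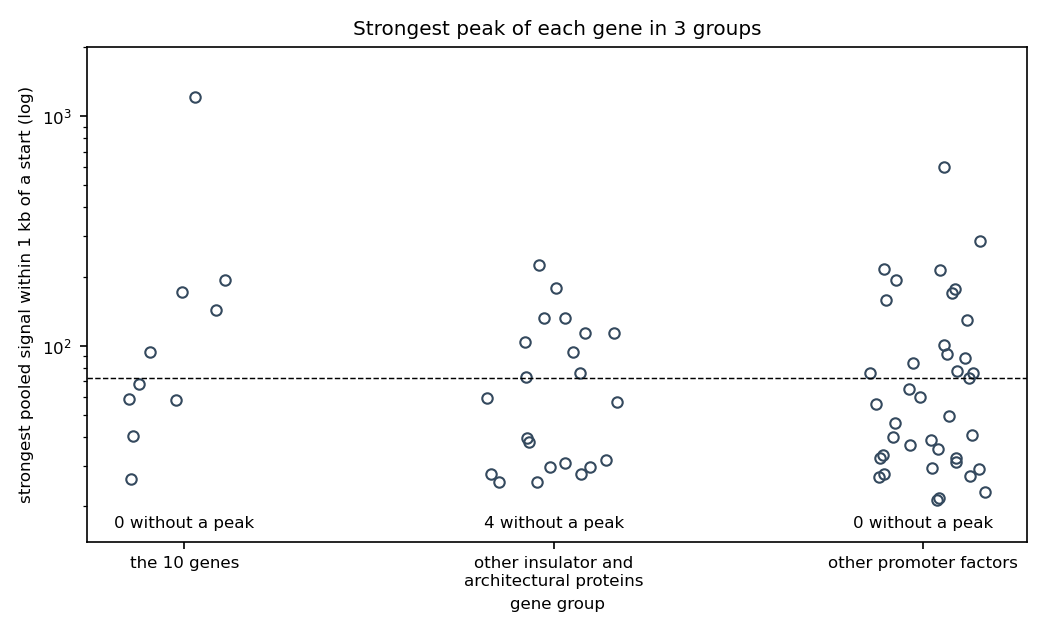
Strongest pooled signal within 1 kb of a start (log y axis) for each gene of 3 groups, with sideways scatter only to separate points. The dashed line is signal 72.3 and the text gives the genes with no peak. Above the line are 5 of 10, 10 of 26 and 16 of 39 genes, and Chro at 1211 is the highest of all.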

How the data were processed

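Per the labels, maf-S-eGFP embryos were assayed in 2 biological replicates by anti-GFP ChIP-seq. The authors deposited peak lists in narrowPeak layout on dm6 and dm3; only dm6 was used. Per the deposited read-me files and file names, 1 list comes from each replicate, 1 from the alignments of both and 1 holds the peaks past the reproducibility threshold. Aligner, caller, threshold and read depth are not given in the sources used here, so the precision of a rank cannot be given. The deposited signal value ranks the peaks. The deposited −log10 q-value was 3.81 for every thresholded peak and was not used further. The summit is the authors' offset from the peak start, used as another whole-number column.

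Coordinates are 1-based. Start sites came from Ensembl release 115 (dm6), transposable elements left out, on 6 arms: 18164 genes, 13945 of them protein-coding. Sequence came from the RefSeq Release 6 genome. No sequence is shown for some loci. Replicate summits within 150 bp were matched. All members were named, with the gene whose start is nearest to each thresholded summit of a window, the nearest neighbour of each member, and the 4 strongest bound genes of each other list. The members and lists were chosen with earlier results of these data known. All 65 list genes were found, 2 by current names. Python 3.11.15, numpy 2.4.6 and pandas 2.3.3 were used, and the counting was tested on simulated peaks. Alternatives were the stronger 1602 thresholded peaks, other distances and motif windows, and each replicate alone.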

Additional observations from a re-analysis of the deposited data

How the results depend on the processing

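The counts of bound members and of thresholded summits in their windows kept within 1.5 times their reported values under the alternatives run. Of the 10 genes, 4 were bound with the stronger 1602 thresholded peaks, where BEAF-32 was lost. The counts were 5 within 500 bp of a start and 6 within 5 kb. Without replicate 2 and without replicate 3 they were 5 and 6, beside 18.9% and 19.7% of protein-coding genes. The median best rank was 2790, and each replicate alone gave 3418 and 1913. Single ranks that moved by more were CTCF and BEAF-32 in replicate 2 alone, 2628 and 1198, and Trf2 in each replicate, 4247 and 4784. The other insulator genes bound fell from 10 to 6 with the stronger 1602 peaks. The other promoter factors went from 16 to 9 with these peaks and to 30 within 5 kb. The DRE was at 0 of the members' summits within 50 bp and at 2 within 200 bp, beside 1 within 100 bp. Shares over all genes or summits are not given here for the stronger 1602 peaks, the other distances or the other motif windows. Counts at those settings therefore show only how far the calls moved, with no background beside them. Within 150 bp, 8 of the 9 summits were matched in both replicates, and 9 within 300 bp. The cause of these shifts was not tested. No paired analysis was possible because the study has 1 group. The depth is unknown, so no limit of detection can be given for the unbound genes.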
